A study of Homo sapiens with 8 samples.

Results

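The genes described here code for proteins that burn fuel in mitochondria: subunits of the respiratory chain (complexes II to V), enzymes of the tricarboxylic acid (TCA) cycle with its pyruvate entry, and proteins of fatty acid oxidation. The set was a fixed list of 59 gene symbols, 28 for complexes II to V, 17 for the TCA cycle and 14 for fatty acid oxidation. A probe set carrying the symbol was found for 33 of them, among 14884 named genes in all: 15 respiratory chain genes, 11 TCA cycle genes and 7 fatty acid oxidation genes. The measured respiratory chain genes all belong to complexes III and IV.

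The cells were MOLM-14 (written MOLM14 and MOML14 in the labels), an established human acute myeloid leukaemia line. All cells had 72 h of doxycycline and carried a short hairpin RNA: shCD39, directed against ENTPD1, the gene of the surface enzyme CD39, on 4 arrays, and shCTRL, a scrambled hairpin, on 4 arrays. The one comparison is shCD39 against shCTRL. CD39 splits extracellular ATP and ADP. The labels call the arrays technical replicates and speak of clones without saying how many. The p-values here therefore reflect spread among arrays, which may be technical.

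The 26 members without a named probe set are not analysed here. They are SDHA, SDHB, SDHC and SDHD of complex II; UQCRFS1 and UQCRQ of complex III; CYCS, the mobile carrier cytochrome c; ATP5F1A, ATP5F1B, ATP5F1C, ATP5MC1, ATP5PB and ATP5PO of complex V; IDH2, SUCLG1, SUCLG2, SUCLA2, FH and MDH2 of the TCA cycle; and ACADM, ACADS, ACADVL, ACAD9, HADHA, HADHB and ECHS1 of beta-oxidation. No listed member therefore stands for complexes II and V, for the lower part of the TCA cycle from succinyl-CoA to oxaloacetate, or for the acyl-CoA dehydrogenases. A few genes of complex V from outside the list, but no subunit of complex II, are covered with the neighbouring pathways.

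As background, pyruvate and fatty acids are both broken down to acetyl-CoA, which citrate synthase feeds into the TCA cycle. The cycle and beta-oxidation hand electrons to the respiratory chain, where complexes III and IV pass them through cytochrome c to oxygen and pump protons that drive ATP synthesis. Leukaemic myeloid cells are known to depend on this respiration to varying degrees, and fatty acids enter their mitochondria through the carnitine shuttle.

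Values are log2 expression after RMA, a procedure that brings all arrays to a shared distribution, so every change is relative to the bulk of probe sets. Correlations between arrays over the 14884 genes ran from 0.980 to 0.992. The array shCD39 4 stood apart, with a mean correlation of 0.984 to the other shCD39 arrays and 0.989 to the shCTRL arrays; the other shCD39 arrays correlated more with their own group. The targeted gene ENTPD1 read 2.42, 2.14, 2.72 and 2.95 in shCD39 arrays 1 to 4 and 3.16, 2.88, 3.21 and 4.12 in shCTRL arrays 1 to 4. Its log2 fold change was -0.79 (limma adjusted p = 0.178, SE 0.25), the groups overlapped, and without shCTRL array 4 it was -0.53. ENTPD1 averaged 2.56 in shCD39 and 3.34 in shCTRL, below the median gene mean. At so low a level a change may be compressed, so its size does not measure how far the hairpin lowered the RNA. Of 12 genes chosen as myeloid markers of the line, 8 were measured. The receptor FLT3 averaged 9.38 ± 0.32 in shCD39 and 9.66 ± 0.07 in shCTRL (SD, n = 4 arrays each). Lysozyme (LYZ) lay between 8.72 and 10.63 on all arrays. MPO averaged 7.0 ± 0.7 in shCD39 and 7.4 ± 0.7 in shCTRL. Not all the markers were bright: CD14 averaged 2.47 ± 0.25 in shCD39 and 2.38 ± 0.13 in shCTRL.

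Of the 33 measured members, 0 passed an adjusted p of 0.05 in limma, where 14 of all genes did (0.0941%; 0.047% higher and 0.047% lower). At an unadjusted p under 0.05 there were 6 members (18.2%), 2 higher and 4 lower in shCD39, against 14.7% of all genes (6.54% higher, 8.13% lower). The 4 shCD39 arrays lay wholly on one side of the 4 shCTRL arrays in 5 members, or 15.2%, against 7.85% of all genes. These were CPT1A, which read higher in shCD39 (3.61% of all genes), and CS, DLAT, HADH and ECI1, which read lower (4.23% of all genes). Of all members 14 had higher and 19 lower means, and the median log2 fold change was -0.02, against 0.01 for all genes. Since 30 of the 33 members lie in the brighter part of the genes, above the median gene mean, that part is the closer yardstick: there 41.3% of genes had higher means, close to the 42.4% of members, 20.5% had an unadjusted p under 0.05, and 11.2% did not overlap.

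**Figure D1:**
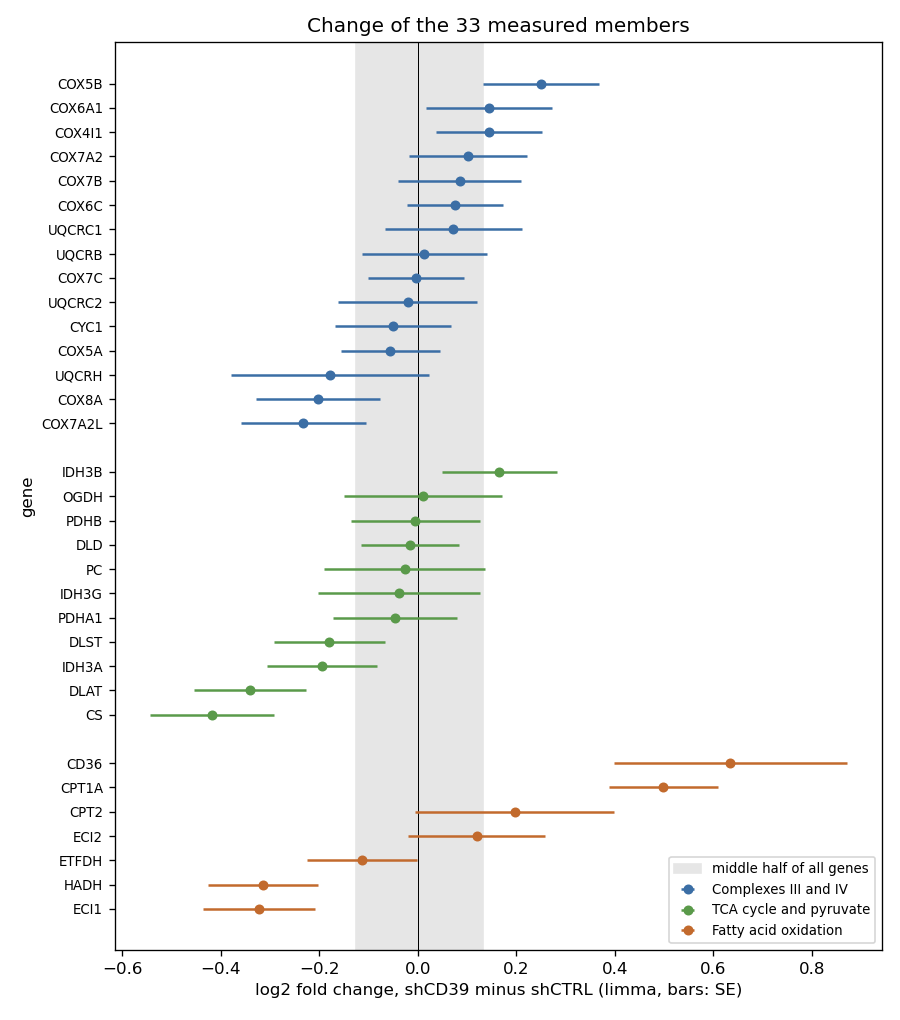
Log2 fold change (shCD39 minus shCTRL) with its standard error for the 33 measured members, by group; the grey band spans the lower to the upper quartile of all 14884 genes. CD36 and CPT1A lie farthest to the right (0.63 and 0.50) and CS farthest to the left (-0.42), while 12 of the 15 complex III and IV genes lie between -0.18 and 0.15.

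The groups of members are described by their medians, and differences between them were not tested. The 7 fatty acid oxidation genes had a median absolute log2 fold change of 0.31 and held 4 of the 6 members at an unadjusted p under 0.05. The 11 TCA cycle genes had a median absolute change of 0.05 but held the other 2, and 9 of the 11 had lower means. The 15 complex III and IV genes held none, with a median absolute change of 0.08, against 0.13 for all genes. The signed medians were 0.12 for fatty acid oxidation, -0.04 for the TCA cycle and 0.01 for complexes III and IV. The sign of the fatty acid oxidation median depended on the choice of genes and arrays: without dim genes it was -0.11, and without both arrays numbered 4 it was -0.03.

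The carnitine shuttle held the member nearest to the threshold. CPT1A, the outer membrane enzyme that links long-chain fatty acids to carnitine and sets the pace of their entry into mitochondria, read 8.87, 9.12, 8.86 and 8.95 in shCD39 arrays 1 to 4 and 8.38, 8.43, 8.37 and 8.63 in shCTRL arrays 1 to 4. Every shCD39 array was above every shCTRL array. The log2 fold change was 0.50 (SE 0.11), or 1.41-fold, with a limma adjusted p of 0.0928. The exact permutation p was 0.0286, the smallest that 4 against 4 arrays can give. With 1 array left out the change ran from 0.44 to 0.56, and without both arrays numbered 4 it was 0.56 with a limma adjusted p of 0.0499, where 2.47% of all genes passed.

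CPT2, the partner enzyme of the inner membrane that releases the fatty acid again, had no clear difference. It averaged 6.49 ± 0.32 in shCD39 and 6.29 ± 0.39 in shCTRL (SD, n = 4 arrays each), and the difference of 0.20 had a 95% interval of -0.24 to 0.64. In both groups array 3 was the lowest, at 6.04 in shCD39 and 5.76 in shCTRL. A second, dimmer probe set of CPT2 averaged 4.55 ± 0.23 in shCD39 and 4.43 ± 0.09 in shCTRL.

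CD36, a surface receptor that takes up long-chain fatty acids and also serves monocytes and macrophages as a scavenger receptor, had the widest difference of the members. It read 3.03, 3.12, 3.42 and 2.52 in shCD39 arrays 1 to 4 and 1.94, 2.30, 2.26 and 3.07 in shCTRL arrays 1 to 4. The groups overlapped through shCTRL array 4, the highest of its group, which lay above shCD39 arrays 1 and 4. The lowest shCD39 array, array 4, was still above shCTRL arrays 1 to 3. The log2 fold change was 0.63 (limma adjusted p = 0.242, SE 0.24), with an exact permutation p of 0.0857. It grew to 0.86 when shCTRL array 4 was left out. Without both arrays numbered 4 it was 1.03 (limma adjusted p = 0.0161, SE 0.15), where 2.47% of all genes passed. These 2 arrays lay nearest to the other group in CD36, so leaving them out must widen the difference and is not separate support for it. CD36 was 1 of 3 members among the dimmer genes, below the median gene mean, with UQCRB and ECI2.

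Of 16 markers of monocytes and macrophages 11 were measured, all 11 had higher means in shCD39, and 0 passed over all genes in limma. The median log2 fold change was 0.11, and 7 of the 11 differed by only 0.08 to 0.12, with an unadjusted limma p of 0.328 or more. The summed intensity of the 11 markers ran from 1320 to 2414 in shCD39 and from 1067 to 1266 in shCTRL. CSF1R, a growth factor receptor, differed by 1.36 on the log2 scale (limma adjusted p = 0.0849, SE 0.29). The calcium-binding protein S100A8 differed by 1.11 (limma adjusted p = 0.0908, SE 0.25) and lysozyme (LYZ) by 1.07 (limma adjusted p = 0.0926, SE 0.24). S100A9 differed by 0.93 and had the lowest limma adjusted p of the markers (0.0568, SE 0.16). In CSF1R, S100A9 and LYZ, as in CD36, shCD39 array 4 was the lowest of its group, while in S100A8 it was array 2. Without both arrays numbered 4, where 2.47% of all genes passed, CSF1R differed by 1.62 (limma adjusted p = 0.019) and LYZ by 1.36 (limma adjusted p = 0.0102). S100A8 differed by 1.39 in that fit (limma adjusted p = 0.0298). Their part in the CD36 difference was not tested, and in a bulk culture more cells of a type and more RNA per cell cannot be told apart.

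HADH and ECI1 had lower means in shCD39. HADH, which oxidises the hydroxyacyl-CoA intermediate of shorter fatty acids, read 6.49, 6.27, 6.24 and 6.56 in shCD39 arrays 1 to 4 and 6.82, 6.72, 6.66 and 6.61 in shCTRL arrays 1 to 4. ECI1, the isomerase that lets unsaturated fatty acids enter beta-oxidation, read 6.73, 6.40, 6.58 and 6.72 in shCD39 and 6.79, 6.99, 7.04 and 6.91 in shCTRL. In both genes every shCD39 array was below every shCTRL array, by a narrow gap in each. The log2 fold changes were -0.31 for HADH (limma adjusted p = 0.224, SE 0.11) and -0.32 for ECI1 (limma adjusted p = 0.217, SE 0.11), and the exact permutation p was 0.0286 for each.

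ETFDH, which passes electrons from fatty acid oxidation to ubiquinone, averaged 6.78 ± 0.16 in shCD39 and 6.89 ± 0.09 in shCTRL, a log2 fold change of -0.11 with a 95% interval of -0.36 to 0.13. ECI2, a related isomerase found in peroxisomes and mitochondria, averaged 2.05 ± 0.15 in shCD39 and 1.93 ± 0.25 in shCTRL (SD, n = 4 arrays each). Its log2 fold change was 0.12, or -0.03 without both arrays numbered 4, and at so low a level a change may be compressed.

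**Figure D2:**
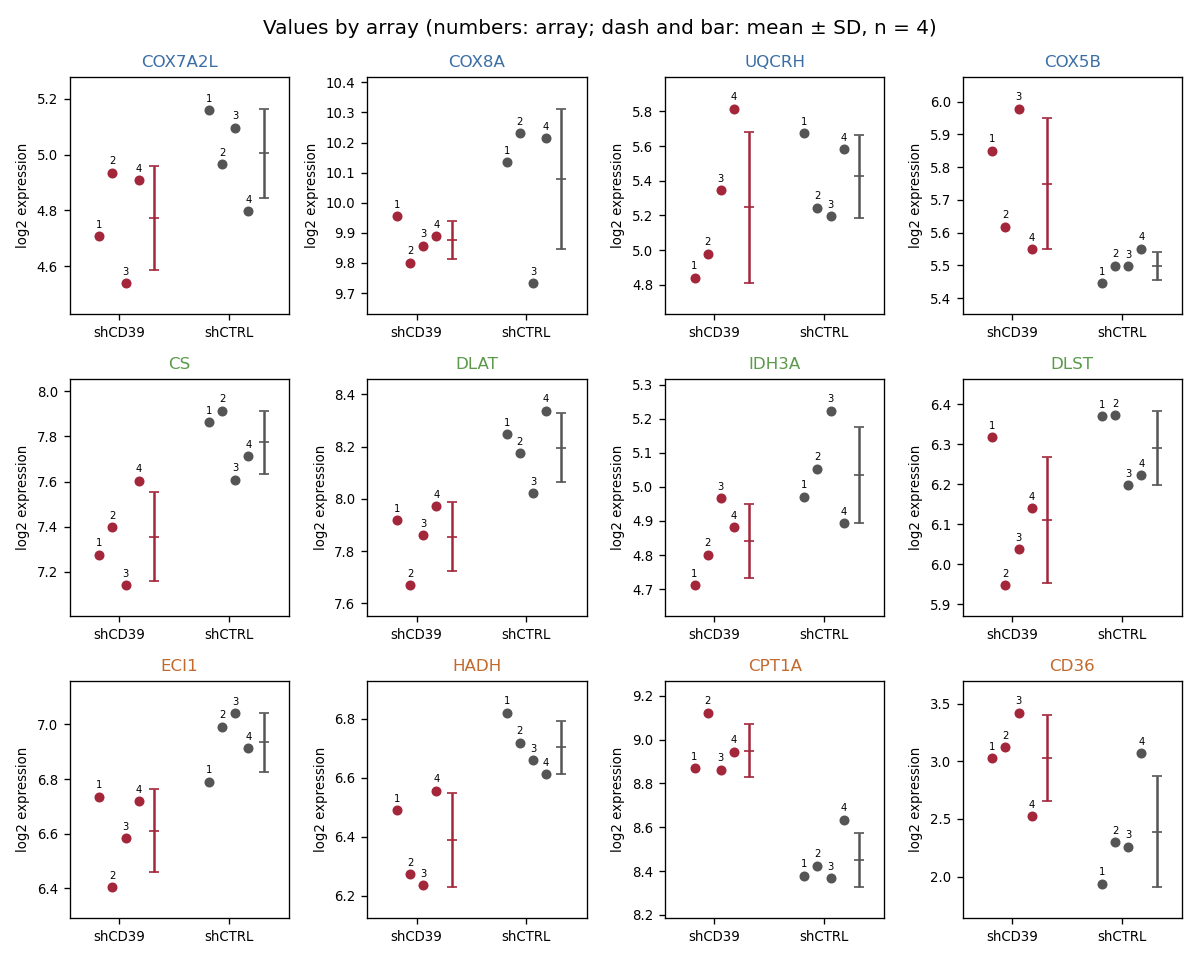
Log2 expression of 12 members on each array, shCD39 in red and shCTRL in grey, with the array number above each point and the group mean ± SD beside the points (n = 4). Each panel has its own axis. In CPT1A, CS, DLAT, ECI1 and HADH the groups do not overlap, and in CD36 shCTRL array 4 makes them overlap.

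In the TCA cycle the lowest values relative to shCTRL were at the entry of acetyl-CoA. CS, citrate synthase, which joins acetyl-CoA to oxaloacetate, read 7.28, 7.40, 7.14 and 7.60 in shCD39 arrays 1 to 4 and 7.86, 7.91, 7.61 and 7.71 in shCTRL arrays 1 to 4. The groups did not overlap, but shCD39 array 4 lay just under shCTRL array 3. The log2 fold change was -0.42 (limma adjusted p = 0.165, SE 0.13, exact permutation p = 0.0286), with a range of -0.50 to -0.35 when 1 array was left out.

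DLAT, the acetyl-transferring core of pyruvate dehydrogenase, read 7.92, 7.67, 7.86 and 7.97 in shCD39 arrays 1 to 4 and 8.25, 8.17, 8.02 and 8.34 in shCTRL arrays 1 to 4. Every shCD39 array was below every shCTRL array, again by a narrow gap, and the log2 fold change was -0.34 (limma adjusted p = 0.198, SE 0.11, exact permutation p = 0.0286). The other subunits of pyruvate dehydrogenase showed no such gap. PDHA1 and PDHB, which form the decarboxylating part, had log2 fold changes of -0.05 (95% interval -0.32 to 0.23) and -0.01 (-0.29 to 0.28). DLD, the subunit that pyruvate dehydrogenase shares with oxoglutarate dehydrogenase, averaged 8.04 ± 0.09 in shCD39 and 8.06 ± 0.06 in shCTRL (SD, n = 4 arrays each).

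Further round the cycle the differences were smaller. IDH3A, the catalytic subunit of the NAD-dependent isocitrate dehydrogenase, read 4.71, 4.80, 4.97 and 4.88 in shCD39 and 4.97, 5.05, 5.22 and 4.89 in shCTRL, so the groups overlapped. Its log2 fold change was -0.20 (limma adjusted p = 0.46, SE 0.11), while its partner subunits IDH3B and IDH3G had 0.17 and -0.04. DLST, the succinyl-transferring core of oxoglutarate dehydrogenase, read 6.32, 5.95, 6.04 and 6.14 in shCD39 and 6.37, 6.37, 6.20 and 6.22 in shCTRL. Here shCD39 array 1 lay inside the shCTRL range and the other shCD39 arrays below it, with a log2 fold change of -0.18 (limma adjusted p = 0.511, SE 0.11). OGDH, the decarboxylating subunit of the same complex, had 0.01 (95% interval -0.34 to 0.36), and pyruvate carboxylase (PC), which makes oxaloacetate from pyruvate, -0.03 (-0.38 to 0.33).

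The subunits of complexes III and IV stayed within narrow bounds. Complex III takes electrons from ubiquinol: its core subunits UQCRC1 and UQCRC2 averaged 7.81 ± 0.22 and 9.79 ± 0.23 in shCD39, against 7.74 ± 0.19 and 9.81 ± 0.19 in shCTRL (SD, n = 4 arrays each). CYC1, its cytochrome subunit, averaged 8.60 ± 0.14 in shCD39 and 8.65 ± 0.16 in shCTRL. UQCRB, a small subunit, differed by 0.01 (95% interval -0.27 to 0.29). UQCRH, the hinge subunit, spread most: it read 4.84, 4.98, 5.35 and 5.82 in shCD39 and 5.68, 5.25, 5.20 and 5.58 in shCTRL, so shCD39 held both the lowest and the highest value. Its log2 fold change of -0.18 (limma adjusted p = 0.743, SE 0.20) became -0.37 without shCD39 array 4 and -0.04 without shCD39 array 1.

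Complex IV, cytochrome c oxidase, had 10 measured genes, 6 with higher and 4 with lower means. COX5B read 5.85, 5.62, 5.98 and 5.55 in shCD39 and 5.45, 5.50, 5.50 and 5.55 in shCTRL. Arrays 1 to 3 of shCD39 stood above all shCTRL arrays, and shCD39 array 4 met the highest shCTRL array. The log2 fold change was 0.25 (limma adjusted p = 0.352, SE 0.12, exact permutation p = 0.0571). COX8A read 9.96, 9.80, 9.86 and 9.89 in shCD39 and 10.14, 10.23, 9.73 and 10.22 in shCTRL. Only shCTRL array 3 broke the order of the groups, and the log2 fold change of -0.20 (limma adjusted p = 0.508, SE 0.13) was -0.32 without it.

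COX7A2L, which is known for joining complexes III and IV into larger assemblies, read 4.71, 4.94, 4.54 and 4.91 in shCD39 and 5.16, 4.97, 5.10 and 4.80 in shCTRL, overlapping through shCTRL array 4. Its log2 fold change was -0.23 (limma adjusted p = 0.44, SE 0.13). Its relative COX7A2, the subunit of the enzyme itself, averaged 6.63 ± 0.09 in shCD39 and 6.53 ± 0.19 in shCTRL (SD, n = 4 arrays each), 0.10 apart. Of the remaining subunits, COX4I1 and COX6A1 had 0.14 each, COX7B and COX6C 0.08 each, and COX7C and COX5A had -0.004 and -0.06.

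The intervals of the fit limit the size of the changes, but only against the spread among these arrays. That spread may be technical, so the limits may not hold for separate cultures. The 95% intervals of the log2 fold change, not adjusted for the number of genes, lay within 2-fold in both directions for 32 of the 33 members, CD36 being the exception. They lay within 1.5-fold for 14 of 15 complex III and IV genes, 9 of 11 TCA cycle genes and 4 of 7 fatty acid oxidation genes. In 19 of the 33 members the difference between the group means was smaller than the SD among arrays of a group. That SD had a median of 0.17 over the members and 0.19 over all genes.

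Part of that spread was shared between members of a group of arrays. In shCTRL, array 3 was the lowest array in 17 of the 33 members (51.5%), against 26.1% of all genes, and array 4 the highest in 14 (42.4%), against 27.7%. In shCD39, array 2 was the lowest in 13 members (39.4%), against 23.1% of all genes, and array 1 the highest in 12 (36.4%), against 26.8%. These shares were not worked out for the brighter genes alone, so whether this spread is particular to the members was not tested. The mean deviation of the 11 TCA cycle genes from the shCTRL mean was 0.01, -0.21, -0.08 and -0.11 in shCD39 arrays 1 to 4 and 0.01, 0.08, -0.13 and 0.04 in shCTRL arrays 1 to 4. The groups thus overlapped. For the 15 genes of complexes III and IV it was 0.06, -0.06, 0.08 and -0.04 in shCD39 and 0.01, 0.01, -0.10 and 0.07 in shCTRL, and for the 7 fatty acid oxidation genes 0.14, 0.12, 0.05 and 0.09 in shCD39 and -0.12, 0.07, -0.07 and 0.12 in shCTRL. Over all genes the same mean deviation ran from -0.0135 (shCD39 array 3) to 0.0105 (shCTRL array 2).

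**Figure D3:**
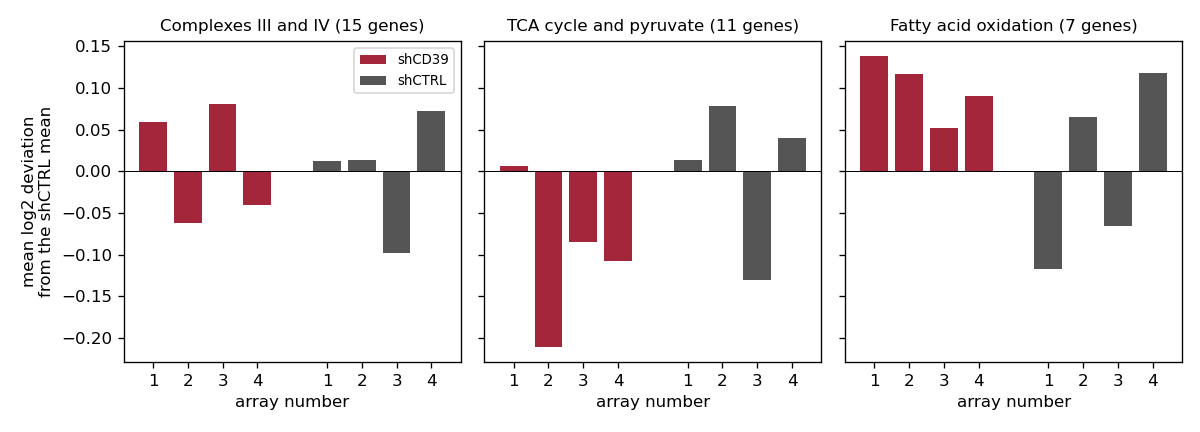
Mean log2 deviation from the shCTRL mean over the measured genes of each group, for shCD39 arrays 1 to 4 (red) and shCTRL arrays 1 to 4 (grey). The bars of the groups overlap in all 3 panels; shCTRL array 3 is the lowest shCTRL array for complexes III and IV (-0.10) and the TCA cycle (-0.13), and shCTRL array 1 for fatty acid oxidation (-0.12).

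Promoters are shown for 6 members: CPT1A, CS and ECI1, whose groups of arrays did not overlap, and UQCRC1, COX5B and IDH3G, which hold letters typical of promoters of mitochondrial genes. RefSeq (GRCh38.p14) gives a window of 250 bases before to 50 after the start for 52 of the 59 members, 28 of the 33 measured. The windows are chr11:68844228-68844527 (minus strand) for CPT1A, chr12:56300281-56300580 (minus) for CS, chr16:2251538-2251837 (minus) for ECI1, chr3:48609597-48609896 (minus) for UQCRC1, chr2:97645812-97646111 (plus) for COX5B and chrX:153794326-153794625 (minus) for IDH3G. Capitals mark matches to the motifs listed after the sequences, on either strand, and base 251 is the start.
CPT1A: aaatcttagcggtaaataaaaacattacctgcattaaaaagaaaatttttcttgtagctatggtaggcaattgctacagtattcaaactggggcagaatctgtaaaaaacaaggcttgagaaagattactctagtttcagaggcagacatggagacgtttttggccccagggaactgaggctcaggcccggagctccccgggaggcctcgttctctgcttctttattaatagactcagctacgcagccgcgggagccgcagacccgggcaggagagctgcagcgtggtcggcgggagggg
CS: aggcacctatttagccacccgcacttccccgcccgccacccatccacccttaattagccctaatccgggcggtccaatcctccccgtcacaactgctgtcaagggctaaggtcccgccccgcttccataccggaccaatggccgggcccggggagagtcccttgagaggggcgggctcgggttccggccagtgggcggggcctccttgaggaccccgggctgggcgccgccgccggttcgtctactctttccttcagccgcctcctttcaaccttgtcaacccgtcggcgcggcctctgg
ECI1: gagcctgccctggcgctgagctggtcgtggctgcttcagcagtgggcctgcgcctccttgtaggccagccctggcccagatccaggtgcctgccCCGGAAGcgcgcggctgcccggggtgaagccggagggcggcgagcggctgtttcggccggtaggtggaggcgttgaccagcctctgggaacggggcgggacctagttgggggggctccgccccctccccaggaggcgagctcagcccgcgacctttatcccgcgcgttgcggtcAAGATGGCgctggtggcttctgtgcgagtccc
UQCRC1: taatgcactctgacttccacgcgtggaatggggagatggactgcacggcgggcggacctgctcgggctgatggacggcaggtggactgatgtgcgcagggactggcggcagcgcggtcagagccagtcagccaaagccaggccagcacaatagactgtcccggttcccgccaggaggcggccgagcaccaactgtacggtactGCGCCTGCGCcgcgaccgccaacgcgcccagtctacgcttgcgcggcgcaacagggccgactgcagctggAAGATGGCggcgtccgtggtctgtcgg
COX5B: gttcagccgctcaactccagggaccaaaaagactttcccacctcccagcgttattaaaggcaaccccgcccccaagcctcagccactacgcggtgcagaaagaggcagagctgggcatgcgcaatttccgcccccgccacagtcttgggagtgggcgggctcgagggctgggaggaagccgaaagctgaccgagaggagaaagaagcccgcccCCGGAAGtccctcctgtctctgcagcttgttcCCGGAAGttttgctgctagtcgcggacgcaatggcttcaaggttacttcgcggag
IDH3G: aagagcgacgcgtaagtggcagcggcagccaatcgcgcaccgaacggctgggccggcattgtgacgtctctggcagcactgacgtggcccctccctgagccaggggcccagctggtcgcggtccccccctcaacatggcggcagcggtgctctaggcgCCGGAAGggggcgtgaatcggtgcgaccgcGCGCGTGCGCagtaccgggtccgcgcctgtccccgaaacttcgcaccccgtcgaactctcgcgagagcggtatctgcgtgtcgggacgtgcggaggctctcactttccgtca

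The motifs searched were the motif of NRF1 (nuclear respiratory factor 1), seen in capitals in UQCRC1, CCGGAAG for the ETS family, which includes the mitochondrial regulator GABP, AAGATGGC for YY1, CACGTG for E-box factors such as MYC, TGACGTCA for CREB and the direct repeat DR1 for nuclear receptors such as the PPARs. None of them shares its letters with another in the windows printed. The NRF1 motif stood in 10 of 66 member windows (15.2%), against 5.78% of all 35116 windows, the ETS motif in 15 (22.7%, against 10.3%) and the YY1 motif in 7 (10.6%, against 2.89%). The E-box was in 4 (6.06%, against 7.26%), the CREB motif in 3 (4.55%, against 1.85%) and the nuclear receptor motif in 0 (against 0.0228%).

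These letters describe the windows and no more. UQCRC1 holds the NRF1 motif at bases 204 to 213 and the YY1 motif at 274 to 281, IDH3G the ETS motif at 159 to 165 and the NRF1 motif at 189 to 198, and COX5B the ETS motif at 214 to 220 and at 246 to 252. ECI1 holds the ETS motif at 95 to 101 and the YY1 motif at 269 to 276. The windows of CPT1A, CS, DLAT and HADH hold none of the 6 motifs. G and C made up 50% of the CPT1A window, 67.3% of that of CS and 71.7% of that of ECI1, against a median of 61.5% over the member windows and 58.7% over all windows.

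Genes around these pathways, from lists chosen for this comparison, gave 0 calls in limma as well. For the counts that follow, 52.0% of all genes and 41.3% of the brighter genes had higher means. Of 23 further genes of complexes III to V, 11 were measured, 9 of them with higher means (81.8%) and a median log2 fold change of 0.10. Several were dim: COX6A2, COX6B2, COX7A1 and COX7B2 averaged 1.94 to 3.62 in shCD39 and 1.93 to 3.55 in shCTRL. The count is therefore no measure of the main respiratory chain subunits. ATP5IF1, an inhibitor of ATP synthase, had 0.34 (limma adjusted p = 0.216, SE 0.12) with groups that did not overlap. The isoforms COX4I2 and COX8C had 0.23 and 0.22, COX8C at levels of 1.42 to 2.28, below the median probe set, where a change may be compressed. Of the 37 subunits of complex I, 0 had a named probe set.

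Of the assembly factors 31 were measured, 10 with higher means (32.3%, against 41.3% of the brighter genes) and 21 with lower. Their median was -0.07, near the -0.04 of the brighter genes. PET100, a chaperone of complex IV, had 0.39 (limma adjusted p = 0.14, SE 0.11), and COX20 and COX19, which serve the copper centres of complex IV, had -0.36 and -0.37. The groups did not overlap in PET100, COX20 and TACO1 (0.25). These made up 9.68% of the measured assembly factors, against 7.85% of all genes and 11.2% of the brighter genes. Of the coenzyme Q genes, 6 of 13 were measured, 4 of them lower. COQ4 had -0.28 with groups that did not overlap, COQ9 -0.30 and COQ8B -0.14.

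Around pyruvate dehydrogenase, 7 of 13 genes were measured. LIAS, which makes the lipoyl group that DLAT and DLST carry, read 6.59, 6.86, 6.59 and 6.79 in shCD39 and 7.52, 7.26, 7.44 and 6.81 in shCTRL, with a log2 fold change of -0.55 (limma adjusted p = 0.142, SE 0.15). The groups overlapped through shCTRL array 4. Without both arrays numbered 4 the value was -0.73 (limma adjusted p = 0.0302), where 2.47% of all genes passed. LIPT2, the transferase of the preceding step, had 0.44 (limma adjusted p = 0.11, SE 0.11), with every shCD39 array above every shCTRL array. MPC1, a subunit of the pyruvate carrier, had -0.18.

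All 5 measured genes of 17 that feed or drain the cycle had lower means. PCK2, which turns mitochondrial oxaloacetate into phosphoenolpyruvate, read 5.35, 5.54, 5.53 and 6.52 in shCD39 and 6.92, 6.80, 6.74 and 6.20 in shCTRL. Its log2 fold change was -0.93 (limma adjusted p = 0.12, SE 0.24), and the overlap again came from the arrays numbered 4: without shCD39 array 4 it was -1.19 (limma adjusted p = 0.00774), where 2.84% of all genes passed. D2HGDH, which oxidises hydroxyglutarate, had -0.32 and the glutamate dehydrogenase GLUD1 -0.19.

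In the list of fatty acid activation and further oxidation 13 of 30 genes were measured, 3 with higher means (23.1%) and 10 with lower. That compares with 52.0% higher over all genes and 41.3% over the brighter genes. The groups did not overlap in 3 of the 13 (23.1%, against 7.85% of all genes and 11.2% of the brighter genes). HSD17B10 read higher (0.32), and ACACA (-0.35) and ACSL5 read lower. ACSL5, which activates fatty acids with coenzyme A, read 6.61, 7.45, 6.60 and 7.56 in shCD39 and 7.77, 8.0, 7.67 and 7.69 in shCTRL. Arrays 1 and 3 of shCD39 were far below the shCTRL arrays and arrays 2 and 4 just below. The log2 fold change was -0.73 (limma adjusted p = 0.158, SE 0.22). Without shCD39 array 4 it was -0.90 (limma adjusted p = 0.0423), where 2.84% of all genes passed. ACSL1, a sister enzyme, had -0.39 and the fatty acid binding protein FABP5 -0.38. ACSL4, another activating enzyme, had 0.27 (limma adjusted p = 0.322, SE 0.12), against a limma adjusted p of 0.321 for ACSL1, so the sister enzymes did not share a direction.

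**Figure D4:**
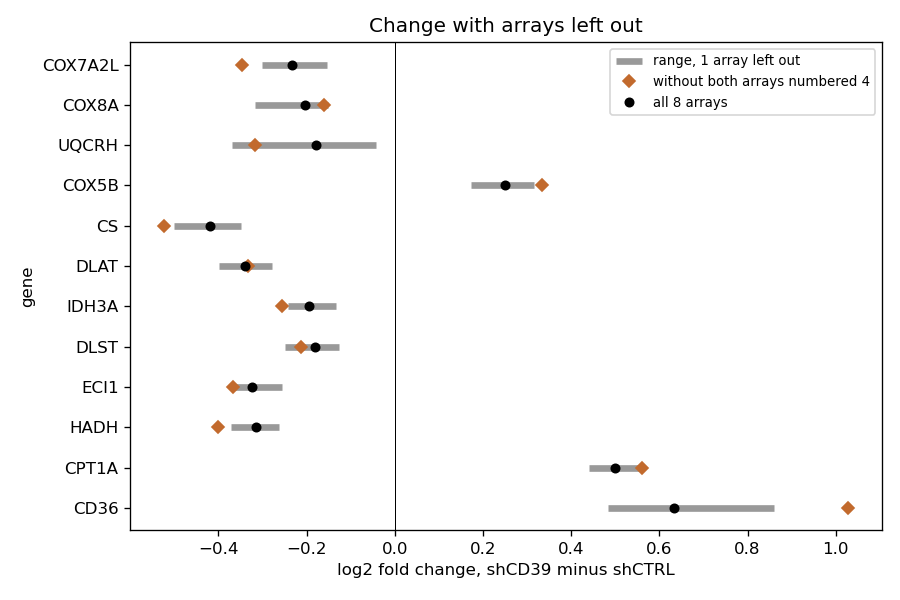
Log2 fold change of 12 members with all 8 arrays (black), its range when 1 array is left out (grey bar) and its value without both arrays numbered 4 (diamond). The members were chosen for non-overlapping groups or large differences, which favours a stable sign. CD36 has the widest spread, between 0.48 and 1.03.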

How the data were processed

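Affymetrix arrays were run on total RNA after GeneChip WT PLUS labelling, per the labels' protocols. The deposited values are log2 expression per probe set, made by the authors with RMA in the oligo package, per the submitters' processing notes; the versions, and the build, are not given in these sources. The table held 53617 probe sets on 8 arrays. The platform annotation named 16098 of them, each with 1 symbol, updated through Entrez IDs against RefSeq. Each gene was its probe set with the highest mean (14884 genes; 779 had several).

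Groups were compared with limma 3.58.1 (lmFit, eBayes) in R 4.3.3, 2-sided, without a block, with Benjamini-Hochberg adjustment over all genes and a threshold of 0.05. Single values had a 2-sided exact permutation test over 70 splits. The procedure was tested on simulated data. There is no read depth for arrays, and precision depends on how many were run. The members and lists were chosen with earlier results of these data known. Values on every array are given for members whose groups did not overlap and the 4 with the largest change per group; from other lists up to 3 genes are named. FLT3, CD14, S100A9, ACSL4, HSD17B10, ACACA, PF4, VWF, TACO1, UQCRHL, COX6A2, COX6B2, COX7A1 and COX7B2 were named outside this rule, after their values were seen.

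RefSeq lists pseudogenes named after 15 of the measured members, and signal from such copies cannot be told apart here. The probe sets of COX6A1 differed widely: the one used averaged 10.65 in shCD39 and 10.51 in shCTRL, the other 2.00 in shCD39 and 2.10 in shCTRL. UQCRH has a near-identical gene, UQCRHL.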

Additional observations from a re-analysis of the deposited data

Results flagged for a closer look

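Of 68 groups of 4 arrays (33 members and ENTPD1, 2 groups each), 2 held an array far from the others by Dixon's criterion, and chance flags about 1 group in 20. COX5A, a subunit of complex IV, read 9.65 in shCD39 array 4, while the other shCD39 arrays lay between 9.86 and 9.88. COX7C, another subunit of complex IV, read 6.52 in shCD39 array 2, while the others lay between 6.67 and 6.69.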

How the results depend on the processing

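With all 8 arrays 14 genes passed in limma. The count was 6 after quantile normalization, 64 without dim genes, 22 with a trended robust prior, 124 with array weights, 368 without both arrays numbered 4, 6 over all probe sets and 2183 at an unadjusted p under 0.05. With 1 array left out it ran from 0 (without shCTRL array 1) to 423 (without shCD39 array 4). Of the members, 0 passed. Without both arrays numbered 4, 2 did (CD36, CPT1A), and 6 did at an unadjusted p, against 0 under each other alternative. In the fit without both arrays numbered 4, 2.47% of all genes passed. The correlations gave no ground for leaving out shCTRL array 4, which had 0.990 with its own group and 0.986 with the other. Where these arrays lay nearest to the other group, leaving them out widens a difference, so passing there is not separate support. With the replicate block, 6 genes and 0 members passed. Over all genes, deviations of same-numbered arrays correlated at -0.04 to 0.06, and 1 of 4 shCD39 arrays correlated best with its own number. That gave no sign of pairing over all genes but cannot exclude it. The block lowered the SE of some genes (ENTPD1, from 0.25 to 0.13) and raised that of others (COX7A2L, from 0.13 to 0.14). The fatty acid oxidation median was 0.12, or -0.11 without dim genes, -0.026 without both arrays numbered 4, and 0.021 to 0.17 with 1 array left out.

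Genes near 0 changed sign; the cause was not tested. After quantile normalization the log2 fold changes were 0.027 for UQCRC2, -0.031 for UQCRB, 0.052 for CYC1, 0.076 for COX7C, 0.074 for IDH3G, 0.080 for DLD, 0.025 for PDHA1 and 0.069 for PDHB. After cyclic loess they were 0.082 for UQCRC2, -0.038 for UQCRB, 0.049 for CYC1, 0.048 for COX5A, 0.067 for COX7C, 0.063 for IDH3G, 0.080 for DLD, 0.0075 for PDHA1 and 0.061 for PDHB, and after median centring -0.023 for UQCRB and -0.026 for OGDH. Without both arrays numbered 4 they were 0.032 for CYC1, 0.032 for PDHA1, 0.037 for PDHB, 0.033 for PC and -0.026 for ECI2. With 1 array left out they ran from -0.014 to 0.14 for UQCRC1, -0.10 to 0.076 for UQCRC2, -0.074 to 0.087 for UQCRB, -0.11 to 0.015 for CYC1, -0.023 to 0.036 for COX7C, -0.16 to 0.080 for IDH3G, -0.11 to 0.12 for OGDH, -0.046 to 0.015 for DLD, -0.10 to 0.036 for PDHA1, -0.081 to 0.087 for PDHB, -0.18 to 0.083 for PC and -0.34 to 0.14 for PPARD.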

Other observations

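Outside mitochondria, 5 of 16 genes of peroxisomal fatty acid oxidation were measured, 4 with higher and 1 with lower means, and 0 passed in limma (2 at an unadjusted p under 0.05). ACAA1, the peroxisomal thiolase, read 4.81, 4.74, 4.97 and 4.66 in shCD39 and 4.41, 4.62, 4.47 and 4.55 in shCTRL, with no overlap and a difference of 0.28 (limma adjusted p = 0.249, SE 0.11). PECR, a peroxisomal reductase of fatty acid elongation, read 5.36, 4.84, 5.29 and 4.86 in shCD39 and 6.39, 5.79, 6.85 and 5.06 in shCTRL. The shCTRL arrays of PECR spread widely (SD 0.77, against 0.28 in shCD39), and the difference was -0.94 (limma adjusted p = 0.196, SE 0.31). Without both arrays numbered 4 it was -1.18 (limma adjusted p = 0.0492), where 2.47% of all genes passed. HSD17B4, the bifunctional enzyme of the pathway, had 0.18.

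Of 15 transcriptional regulators of mitochondrial and fatty acid genes, 6 were measured, with 0 at an unadjusted p under 0.05 and a median log2 fold change of -0.08. NRF1 had -0.25 and ESRRA -0.16. PPARD, a nuclear receptor that responds to fatty acids, read 7.0, 5.64, 7.10 and 5.86 in shCD39 and 6.45, 6.72, 6.61 and 6.26 in shCTRL, so that arrays 1 and 3 of shCD39 were above and arrays 2 and 4 below all shCTRL arrays. Of 18 markers of other cell types, 8 were measured, 6 with higher means in shCD39, among them PECAM1 at 0.77, NKG7 at 0.50 and KRT8 at 0.25, with 0 past the threshold in limma. PECAM1 passed without both arrays numbered 4 (0.99, limma adjusted p = 0.018), where 2.47% of all genes passed. It also passed without shCD39 array 4 (limma adjusted p = 0.0255), where 2.84% of all genes did. With array weights it passed (limma adjusted p = 0.0456) among 124 genes. The arrays numbered 4 lay nearest to the other group in PECAM1, so leaving them out must widen the difference and is not separate support for it. The summed intensity of the 8 markers ran from 219 to 267 in shCD39 and from 176 to 220.1 in shCTRL.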
